A study of Homo sapiens with 8 samples.

Results

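Targets of p53 were examined as a group of 32 genes, chosen by gene symbol for being activated by this tumour suppressor, in HEK293T cells. This established line derives from human embryonic kidney and makes the large T antigen of SV40. A named transcript cluster, the array's unit of measurement, was found for 19 of the 32 genes, and all 19 were among the 28946 clusters kept for testing out of 53617 with values. For FBXO22, which had 2 clusters, the one with the highest mean was taken. The other 13 genes (CDKN1A, MDM2, FAS, TNFRSF10B, TNFRSF10A, XPC, DDB2, ZMAT3, BTG2, FDXR, PPM1D, POLH and PHLDA3) were not analysed here, and neither was the kinase gene ATM. On all 8 arrays, 17 of the 19 lay above the array's own median, and PLK2 and EDA2R dipped below it on 2 arrays and 1 array.

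The study asked what TET1, an enzyme that oxidises 5-methylcytosine in DNA, does to expression in these cells. Expression plasmids for wild-type protein (TET1-FL and TET1-CD) and catalytically mutant protein (mTET1-FL and mTET1-CD), or an empty vector, were introduced by transient transfection, and cells were sorted by fluorescence 3 days later. Lentiviral shRNA gave 2 clones labelled as TET1 knockdowns (shTET1#1 and shTET1#2) and 1 control clone (shControl). Each condition was 1 array, and each shRNA line was a single clone, so a clone's own history cannot be told apart from its shRNA. No label names replicate cultures, so the p-values below measure only the spread between these arrays.

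Large T antigen binds p53 and blocks much of its activity as a transcription factor, which makes the line a background in which p53 is present but restrained. In other human cells, p53 activated by DNA damage binds response elements in its targets, and these in turn halt division, repair DNA, adjust metabolism or start cell death. Several targets answer to other stress pathways too, GDF15, SESN2 and PMAIP1 to ATF4 and the integrated stress response, and PLK2 to serum as an early gene.

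The median log2 signal of an array ran from 5.47 to 5.55, and arrays correlated in pairs at 0.932 to 0.988 over the kept clusters. TET1 cluster 16715048 read 11.80 and 11.91 with TET1-FL and mTET1-FL and 12.10 and 12.03 with TET1-CD and mTET1-CD, against 5.86 with the vector. Cluster 16705381, also for TET1, read 12.22, 12.47, 10.42 and 11.05 in that order, against 9.51 with the vector. There the FL arrays exceeded the CD arrays, and each mutant array exceeded its wild-type counterpart. TET1 signal in that cluster was thus not matched between the plasmids. TET1 cluster 16705381 read 8.62 in shTET1#1 and 9.14 in shTET1#2, against 9.29 in shControl. In cluster 16715048 the same arrays read 5.27 and 6.20, against 5.71. TET1 signal in the second clone was thus slightly below the control in 1 cluster and above it in the other. Its array is called the array labelled shTET1#2. Without a TET1 plasmid, cluster 16715048 read 5.27 to 6.20, beside array medians of 5.47 to 5.55, where low signals are hard to tell from background. In cluster 16705381, with the higher signal, both clones lay below the control, the second only slightly. Of 8 genes listed as expressed in the line, 5 were measured, with KRT18 at 9.30 to 9.77 and VIM at 7.92 to 8.60, while NEFM, NEFL and INA were not analysed here. Of 9 markers of other cell types, 4 were measured. ALB and PECAM1 were not kept, DES read 6.15 to 7.11 and GFAP 5.53 to 6.22. The values of DES thus overlapped those of KRT8, PAX2 and LHX1.

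In cells given any TET1 plasmid, most p53 targets stood above the vector array. All 4 plasmid arrays were above the vector for 14 of 19 members, where 27.2% of all kept clusters were, and all 4 were below it for 0 of 19 (27.2% of all kept clusters). The largest fitted differences belonged to PLK2, a polo-like kinase that slows the cell cycle under stress, GDF15, a secreted stress cytokine, the apoptosis-enhancing nuclease gene AEN, and RRM2B, which supplies deoxynucleotides for DNA repair. For 10 of 19 members the 4 plasmid arrays also lay above all 4 arrays without a TET1 plasmid, against 7.89% of all kept clusters. None of the 19 passed the limma threshold (adjusted p from 0.162 to 0.995), and neither did any other of the 28946 clusters (0%). At an unadjusted limma p under 0.05, 13 of 19 were higher and 0 lower, beside 8.78% and 6.26% of all kept clusters. The median over the members was 0.63 on the log2 scale, and that over all kept clusters was 0.0014. In these bulk samples, more cells that express a gene and more RNA per cell cannot be told apart. The vector was measured on 1 array, which all 4 differences share. A fitted difference of at least 2-fold was found for 4 of 19 members, AEN, GDF15, PLK2 and RRM2B, and for 1.69% of all kept clusters.

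**Figure D1:**
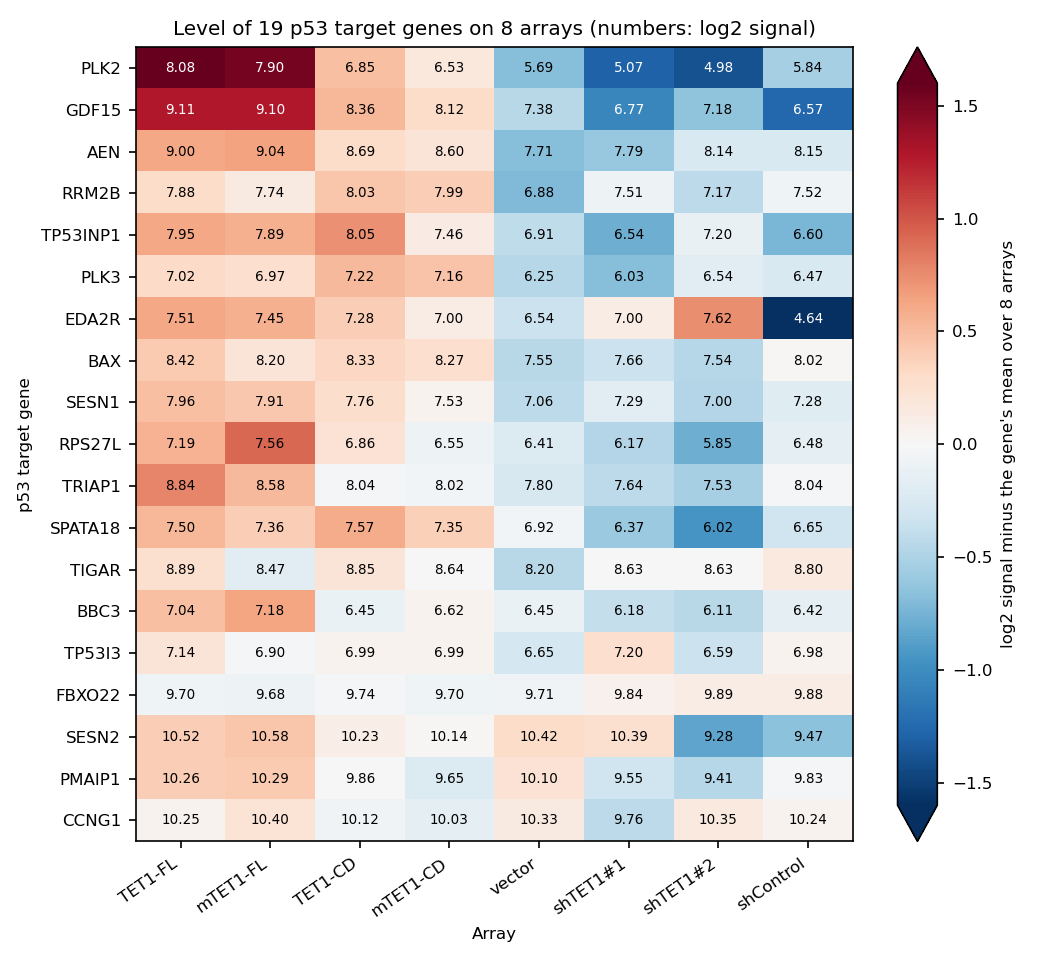
Log2 signal of the 19 p53 target genes (rows) on the 8 arrays (columns), with each value printed and the colour giving its difference from the gene's mean over the 8 arrays. The 4 plasmid columns on the left are mostly red, and PLK2 and GDF15 are reddest on the FL arrays, at 8.08 and 7.90 and at 9.11 and 9.10.

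Growth arrest was represented by PLK2 and PLK3, kinases of the polo-like family. PLK2 read 8.08 with TET1-FL, 7.90 with mTET1-FL, 6.85 with TET1-CD and 6.53 with mTET1-CD, against 5.69 with the vector. Each plasmid array thus exceeded the vector, the FL pair most, and the vector value lay near the array median, where low signals are hard to tell from background. The fitted difference of 1.65 ± 0.14 (SE, log2), or 3.14-fold, had a limma adjusted p of 0.162. PLK3, a stress-activated kinase of the same family, read 7.02, 6.97, 7.22 and 7.16 with TET1-FL, mTET1-FL, TET1-CD and mTET1-CD, against 6.25 with the vector. Its 4 plasmid values were close together and cleared the vector by 0.84 ± 0.23 (adjusted p = 0.235).

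Among cell death effectors, 4 of the 6 measured stood above the vector on each plasmid array (27.2% of all kept clusters), TP53I3 by the least. AEN read 9.00 and 9.04 on the TET1-FL and mTET1-FL arrays and 8.69 and 8.60 on the TET1-CD and mTET1-CD arrays, against 7.71 on the vector array. BAX, which opens the mitochondrial outer membrane, read 8.42 with TET1-FL, 8.20 with mTET1-FL, 8.33 with TET1-CD and 8.27 with mTET1-CD, against 7.55 with the vector. The BAX values averaged 8.31 ± 0.093 (SD over the 4 different plasmids, n = 4), a tighter band than its distance to the vector. TP53INP1, an autophagy and apoptosis cofactor, stood at 7.95, 7.89, 8.05 and 7.46 in the same plasmid order, against 6.91 with the vector, and mTET1-CD was the lowest of the plasmid arrays. Fitted differences were 1.12 ± 0.19 for AEN, 0.76 ± 0.15 for BAX and 0.92 ± 0.30 for TP53INP1 (SE; limma adjusted p = 0.176, 0.188 and 0.284).

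The BH3-only genes, whose proteins trigger BAX, did not share this pattern. BBC3 (PUMA) read 7.04 with TET1-FL and 7.18 with mTET1-FL but 6.45 with TET1-CD and 6.62 with mTET1-CD, against 6.45 with the vector, so its excess lay with FL. PMAIP1 (NOXA) read 10.26, 10.29, 9.86 and 9.65 in that order, against 10.10 with the vector, with the vector between the FL and CD arrays. Their fitted differences were 0.37 ± 0.13 and -0.088 ± 0.15 (limma adjusted p = 0.308 and 0.855). TP53I3, a quinone oxidoreductase gene, stood at 6.90 to 7.14 with the plasmids and 6.65 with the vector.

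EDA2R, the receptor for an ectodysplasin isoform and the only death receptor family gene measured of 4 listed, read 7.51, 7.45, 7.28 and 7.00 with TET1-FL, mTET1-FL, TET1-CD and mTET1-CD, against 6.54 with the vector. RRM2B was the only DNA repair and nucleotide supply gene measured of 4 listed. It read 7.88, 7.74, 8.03 and 7.99 in that order, against 6.88 with the vector, a difference of 1.03 ± 0.18 (SE; limma adjusted p = 0.178). Its CD arrays stood slightly above its FL arrays, the opposite of PLK2. The vector was RRM2B's lowest of the 8 arrays, below shControl by 0.64.

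Of the genes for metabolism and stress protection, 5 of the 6 measured stood above the vector on every plasmid array (27.2% of all kept clusters). GDF15 read 9.11 with TET1-FL, 9.10 with mTET1-FL, 8.36 with TET1-CD and 8.12 with mTET1-CD, against 7.38 with the vector. This excess of 1.29 ± 0.20 (2.45-fold, limma adjusted p = 0.176) came in a step for each construct. SESN1, a leucine-sensing inhibitor of mTORC1 signalling, read 7.96, 7.91, 7.76 and 7.53 in the same order, against 7.06 with the vector. TRIAP1, a small mitochondrial protein gene that restrains apoptosis, read 8.84, 8.58, 8.04 and 8.02, against 7.80 with the vector, so its CD arrays lay closer to the vector than its FL arrays. SPATA18, which acts in mitochondrial quality control, read 7.50, 7.36, 7.57 and 7.35, against 6.92. TIGAR, a fructose bisphosphatase that slows glycolysis, read 8.89, 8.47, 8.85 and 8.64, against 8.20. The vector was TIGAR's lowest array, while shControl read 8.80, and its plasmid mean minus shControl was -0.083. Against the vector, the exception was SESN2, the sestrin that also answers ATF4. It read 10.52, 10.58, 10.23 and 10.14 against 10.42 with the vector, where the arrays overlapped (-0.051 ± 0.42, limma adjusted p = 0.98).

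The remaining members split. RPS27L, a ribosomal protein paralogue, read 7.19, 7.56, 6.86 and 6.55 with TET1-FL, mTET1-FL, TET1-CD and mTET1-CD, against 6.41 with the vector (0.63 ± 0.24, limma adjusted p = 0.337). FBXO22, an F-box subunit of a ubiquitin ligase, had the smallest range of the members over the 8 arrays, 0.21, and lay between 9.68 and 9.74 with the plasmids and at 9.71 with the vector. CCNG1 (cyclin G), a feedback gene that acts with the phosphatase PP2A on MDM2, stood at 10.03 to 10.40 with the plasmids and 10.33 with the vector. It was the only measured one of 3 feedback regulators.

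**Figure D2:**
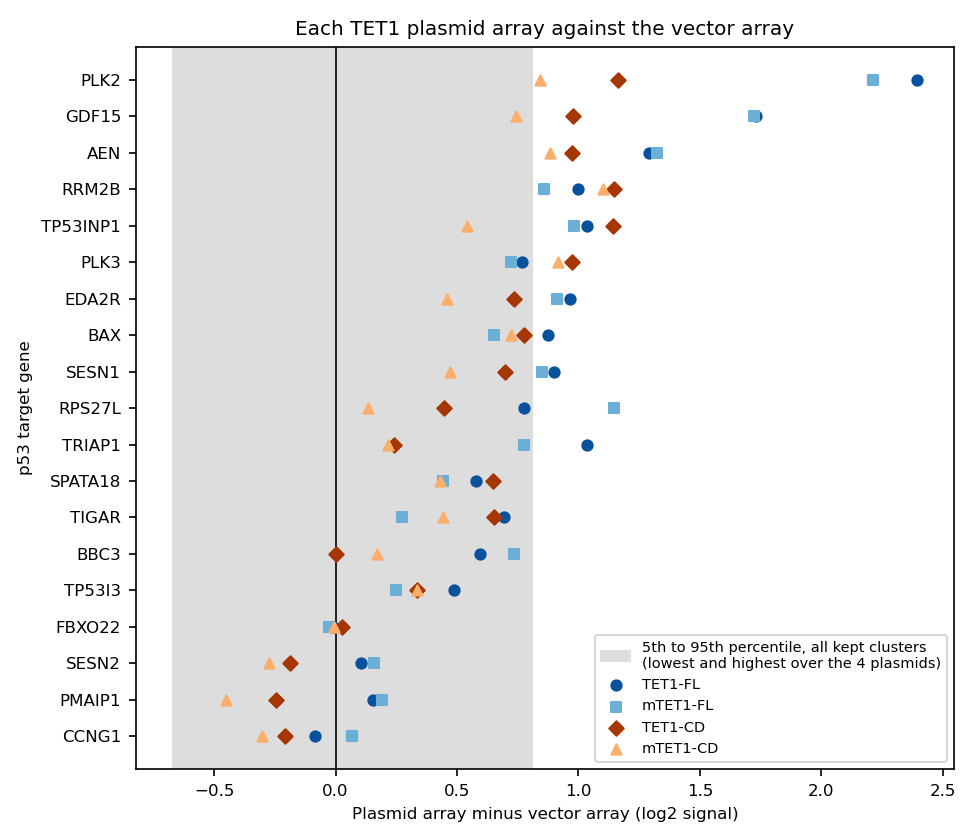
Difference in log2 signal between each TET1 plasmid array and the vector array for the 19 p53 target genes, ordered by their mean, with a grey band from the 5th to the 95th percentile of all kept clusters. PLK2, GDF15 and AEN lie furthest right, and CCNG1, PMAIP1, SESN2 and FBXO22 have points on both sides of 0.

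By plasmid, the median over the 19 members was 0.77 with TET1-FL, 0.73 with mTET1-FL, 0.65 with TET1-CD and 0.44 with mTET1-CD, each minus the vector. The corresponding medians over all kept clusters lay between 0 and 0.0060. Leaving out each plasmid array in turn kept 14 or 15 of 19 members above the vector on all remaining plasmid arrays. The share of all kept clusters was not counted with an array left out, so this count has no background beside it. Against the control clone in place of the vector, the plasmid mean was higher for 16 of the 19 (51.8% of all kept clusters), and the median difference was 0.51, against 0.011 over all kept clusters. The vector array itself stood below shControl for 11 of the 19 (47.7% of all kept clusters), at a median of -0.15, and was at least 2-fold above it only for EDA2R (1 of 19, against 2.09% of all kept clusters).

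Because p53 acts through response elements in DNA, the promoters were read for the p53 consensus, a pair of decamers of 20 letters in all. Promoter windows from RefSeq (build GRCh38.p14, 250 bases before to 50 after a start site) were found for 16 of the 19 genes, in 20 windows. The consensus equals its own reverse complement, so 1 pass covers both strands, and no spacer between decamers was allowed. A best match of at least 17 of 20 letters occurred in 5 of the 16 genes and in 6.39% of 27305 genes with windows. The best sites of these 5 are shown 5′ to 3′ on the gene's strand, because they are the measured members with the closest match. Letters that fit the consensus are in capitals.
AEN: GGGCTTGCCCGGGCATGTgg
GDF15: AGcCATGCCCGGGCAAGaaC
RPS27L: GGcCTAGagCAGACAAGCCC
SESN1: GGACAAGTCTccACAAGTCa
PMAIP1: GAGCgTGTCCGGGCAgGTCg
The AEN site (chr15:88621306-88621325, plus strand) matched 18 letters and began 34 bases before the start site. The others matched 17 and lay at chr19:18386186-18386205 (GDF15, plus strand, within the transcribed part), chr15:63157527-63157546 (RPS27L, minus strand), chr6:109009018-109009037 (SESN1, minus strand, 1 of 3 start sites) and chr18:59899811-59899830 (PMAIP1, plus strand).

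Shown next are the 250 bases before the AEN start (chr15:88621090-88621339, plus strand) and before the PLK2 start (chr5:58460087-58460336, minus strand). They belong to the measured member with the closest match and the member with the largest plasmid difference. Capitals mark the best 20 letters in each.
AEN promoter: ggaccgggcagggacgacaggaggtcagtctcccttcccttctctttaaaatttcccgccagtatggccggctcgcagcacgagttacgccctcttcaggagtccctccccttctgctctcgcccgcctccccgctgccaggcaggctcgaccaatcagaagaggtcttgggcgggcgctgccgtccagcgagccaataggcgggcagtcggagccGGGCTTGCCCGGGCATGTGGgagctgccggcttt
PLK2 promoter: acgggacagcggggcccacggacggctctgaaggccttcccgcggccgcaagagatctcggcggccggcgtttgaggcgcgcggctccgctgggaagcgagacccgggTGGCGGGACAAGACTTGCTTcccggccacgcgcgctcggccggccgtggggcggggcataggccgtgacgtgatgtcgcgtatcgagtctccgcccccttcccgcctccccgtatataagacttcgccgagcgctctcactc
The best PLK2 match had 15 of 20 letters, which 70.5% of the 35116 windows reach, while 0.649% reach the 18 of AEN. Of the 5 genes with at least 17 letters, AEN, GDF15, RPS27L and SESN1 stood above the vector on all 4 plasmid arrays and PMAIP1 did not. Over all 19 members, with or without such a match, 14 stood above it on all 4 (27.2% of all kept clusters), so these 5 genes were not set apart. A missing match says only that these letters are not in this window, since many p53 elements lie in first introns. The observed over expected CpG ratio of the member windows had a median of 0.781 per gene, from 0.311 to 1.15, against 0.563 for all genes.

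Further p53 targets had a lower median difference in the plasmid comparison than the 19 members. Of 71 further targets listed, 44 had a named cluster and 42 were kept. In the plasmid comparison 32 of 42 had a fitted difference above 0 (50.2% of all kept clusters), with a median of 0.16, and 0 passed the limma threshold. The 3 highest were the zinc finger gene ZNF79 (1.15), the cytokine gene LIF (1.12) and the cyclin-dependent kinase 4 cofactor SERTAD1 (0.93), and the 3 lowest were CMBL (-0.36), ZNF337 (-0.33) and SULF2 (-0.32). LIF read 6.71, 6.34, 6.32 and 6.44 with TET1-FL, mTET1-FL, TET1-CD and mTET1-CD, against 5.34 with the vector, and ZNF79 read 8.80, 8.56, 8.75 and 8.67, against 7.54. LIF and SFN exceeded the array median only on plasmid arrays, so they were kept through the arrays where they were high and cannot be read as support. Without these 2 genes, 30 of 40 were above 0, with a median of 0.15. DRAM1 exceeded the array median on 3 arrays, 2 of them plasmid arrays, so it too passed the filter only with plasmid arrays. It is still counted among the 40 and cannot be read as support either.

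Regulators of p53 were about evenly divided. Of 25 listed, 15 were measured, with 7 above 0 (50.2% of all kept clusters) and 8 below, a median of -0.0061 and 0 past the limma threshold. The 3 highest were the deacetylase SIRT1 (0.79) and the acetyltransferases EP300 (0.38) and CREBBP (0.30). The 3 lowest were MDM4, a p53 inhibitor (-0.29), SETD7 (-0.23) and CDKN2A (-0.22). The vector was the lowest of the 8 arrays for SIRT1, EP300 and CREBBP and the highest for MDM4. Plasmid mean minus shControl was 0.15, 0.027 and -0.093 for SIRT1, EP300 and CREBBP, and 0.35, -0.10 and 0.0016 for MDM4, SETD7 and CDKN2A. MDM4 read 9.24, 9.15, 9.17 and 9.15 with the plasmids in the order above, against 9.46 with the vector. The checkpoint kinase gene CHEK2 read 7.42 to 7.65 with the plasmids and 7.49 with the vector.

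Genes that p53 lowers through p21 and the DREAM repressor complex, most of them for mitosis, were mostly above the vector. Of 20 listed, 19 were measured and 16 of 19 had a plasmid difference above 0 (50.2% of all kept clusters), with a median of 0.35 and 0 past the limma threshold. On all 4 plasmid arrays, 15 of 19 lay above the vector and 2, CKS1B and E2F1, below it (27.2% of all kept clusters each way). BUB1 (0.75), CCNB1 (0.72) and CDC25C (0.72) were highest, and CKS1B (-0.24), E2F1 (-0.21) and MCM5 (-0.0074) lowest. CDC25C, which activates the mitotic kinase CDK1, read 8.14, 8.17, 8.53 and 8.38 with TET1-FL, mTET1-FL, TET1-CD and mTET1-CD, against 7.59 with the vector.

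The constructs were compared next, to set the FL plasmids against the CD plasmids, named here as in the labels. FL stood above CD for several members, and most for PLK2. Both FL arrays were above both CD arrays for 11 of 19 members (27.6% of all kept clusters) and below for 3, FBXO22, PLK3 and RRM2B (25.7% of all kept clusters). PLK2 had 8.08 and 7.90 with the FL pair, against 6.85 and 6.53 with the CD pair, a difference of 1.30 ± 0.13 (SE; limma adjusted p = 0.114). GDF15 had 9.11 and 9.10, against 8.36 and 8.12 with CD (0.87 ± 0.18, adjusted p = 0.17). Neither gene's FL and CD values overlapped. TRIAP1 (0.68), RPS27L (0.67) and BBC3 (0.58) followed, with limma adjusted p between 0.159 and 0.298. BAX, by contrast, differed by 0.015 ± 0.13, with its FL and CD arrays interleaved. The median over the members was 0.29, against 0.0031 over all kept clusters, and by catalytic state it was 0.20 between the wild-type arrays and 0.43 between the mutant arrays. None of the 28946 clusters passed (0%), and at an unadjusted limma p under 0.05 there were 6 of 19 higher members (8.86% of all kept clusters) and 0 lower (4.87%).

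Stress and early response genes also stood mostly higher on the FL arrays. Of 18 listed ATF4 and CHOP response genes, 11 were measured, and 10 of 11 had FL above CD in the fit (50.7% of all kept clusters), with a median of 0.25. DDIT3, which encodes CHOP, read 7.63 and 7.60 with TET1-FL and mTET1-FL, against 6.58 and 6.57 with TET1-CD and mTET1-CD and 6.63 with the vector. Against the vector the same list lay lower in 9 of 11 (49.8% of all kept clusters). DDIT4 (-0.79), ASNS (-0.78) and VLDLR (-0.63) were lowest and DDIT3 (0.46), ATF4 (0.048) and XBP1 (-0.058) highest. The single vector array itself stood above shControl for 10 of 11 (50.8% of all kept clusters), at a median of 0.75. Against shControl the plasmid means of DDIT4, ASNS and VLDLR were higher, by 0.73, 0.22 and 0.12. Those of PHGDH, STC2, PSAT1 and ATF4 were lower. Of 16 immediate early genes, 15 were measured, and FL was above CD in 14 of 15 (50.7% of all kept clusters), with a median of 0.42. Against the vector 10 of 15 were above 0 (50.2% of all kept clusters). EGR1 (0.98), FOSB (0.94) and FOSL1 (0.93) led, and ATF3 (-0.34), MYC (-0.34) and JUN (-0.15) were lowest. This order depended on the control array. Plasmid mean minus shControl was -0.35, 0.078 and 0.68 for EGR1, FOSB and FOSL1, and 1.40, -0.40 and 1.08 for ATF3, MYC and JUN. The part of these responses in the p53 target values was not tested.

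Catalytic activity was addressed by setting the wild-type against the mutant plasmids. The differences were small for every member. Wild-type exceeded mutant in both constructs for 12 of 19 members (25% of all kept clusters), and mutant exceeded wild-type in both for BBC3 alone (1 of 19, against 23% of all kept clusters). TP53INP1 read 7.95 with TET1-FL against 7.89 with mTET1-FL, and 8.05 with TET1-CD against 7.46 with mTET1-CD. Its fitted difference of 0.33 ± 0.27 (SE) thus came from the CD pair. TIGAR differed in both pairs, by 0.42 with FL and 0.21 with CD, and stood at 0.31 ± 0.13. PLK2 (0.25), SPATA18 (0.18) and EDA2R (0.16) followed. Every member had a limma adjusted p of 1, and 0 of 19 had an unadjusted p under 0.05 in the higher direction (1.04% of all kept clusters) or the lower (0.915%). The member median was 0.12, against 0.0027 over all kept clusters, and by construct it was 0.047 with FL and 0.095 with CD.

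**Figure D3:**
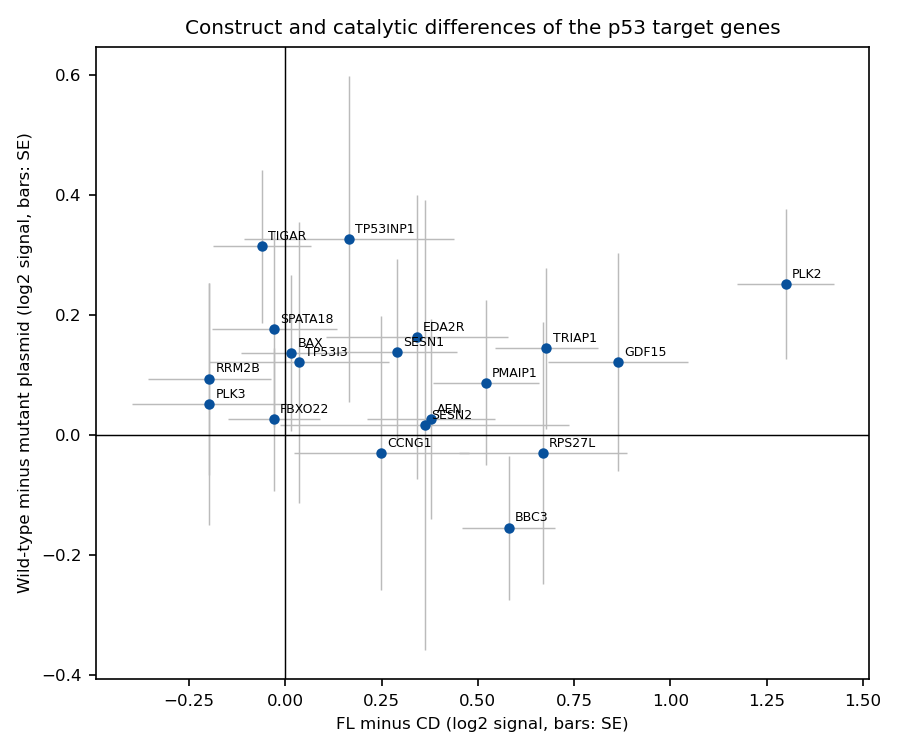
Fitted FL minus CD difference (horizontal) and wild-type minus mutant difference (vertical) in log2 signal for the 19 p53 target genes, with bars of 1 SE from the fit. PLK2 stands apart on the right at 1.30, and no member reaches 0.4 on the vertical axis.

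The TET1 shRNA clones were set against the control clone. Most members lay lower in the clones, and EDA2R lay far above. Both clones were below shControl for 10 of 19 members (33.1% of all kept clusters) and above it for 2, EDA2R and GDF15 (29.4% of all kept clusters). EDA2R stood at 7.00 (shTET1#1) and 7.62 (the array labelled shTET1#2), against 4.64 in shControl, and its vector value was 6.54. The control clone was therefore the lowest of the 8 arrays for EDA2R and lay below its array median. The fitted EDA2R difference was 2.67 ± 0.29 (SE; limma adjusted p = 0.349). GDF15 read 6.77 and 7.18 in the clones, against 6.57 in shControl.

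PLK2 stood at 5.07 (shTET1#1) and 4.98 (the array labelled shTET1#2), against 5.84 in shControl. Both clone values lay below the array medians, and the fitted difference was -0.82 ± 0.15 (SE; limma adjusted p = 0.473). RPS27L read 6.17 and 5.85 in the clones, against 6.48 in shControl, TRIAP1 7.64 and 7.53, against 8.04, and SPATA18 6.37 and 6.02, against 6.65. In each of these 3 genes both clones were lower than the control clone, by 0.45 to 0.47 on average, with limma adjusted p between 0.618 and 0.752. BAX read 7.66 and 7.54, against 8.02, and the vector array, with no shRNA, read 7.55. SESN2 separated the clones, at 10.39 (shTET1#1) and 9.28 (the array labelled shTET1#2), against 9.47 in shControl.

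Over the 19 members the median difference between TET1 shRNA and control clones was -0.18, against -0.010 over all kept clusters. By clone it was -0.24 (shTET1#1) and -0.27 (the array labelled shTET1#2). TET1 signal on the array labelled shTET1#2 was slightly below the control in 1 cluster. It was above the control in the other, which read near the array medians without a TET1 plasmid. None passed (0%), and at an unadjusted limma p under 0.05 there were 3 lower members, BAX, PLK2 and TRIAP1 (4.56% of all kept clusters), and 1 higher, EDA2R (3.36%). With the vector array in place of shControl the member median was -0.043. Among the further targets, 27 of 42 had a fitted difference below 0 (52.2% of all kept clusters) and 15 above, with 0 past the limma threshold. The long noncoding RNA PURPL, an inhibitor of basal p53 that p53 itself induces, read 4.79 and 6.13 in the clones, against 7.90 in shControl (-2.44, adjusted p = 0.497), and 9.11, 9.05, 8.74 and 8.79 with TET1-FL, mTET1-FL, TET1-CD and mTET1-CD, against 8.26 with the vector.

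**Figure D4:**
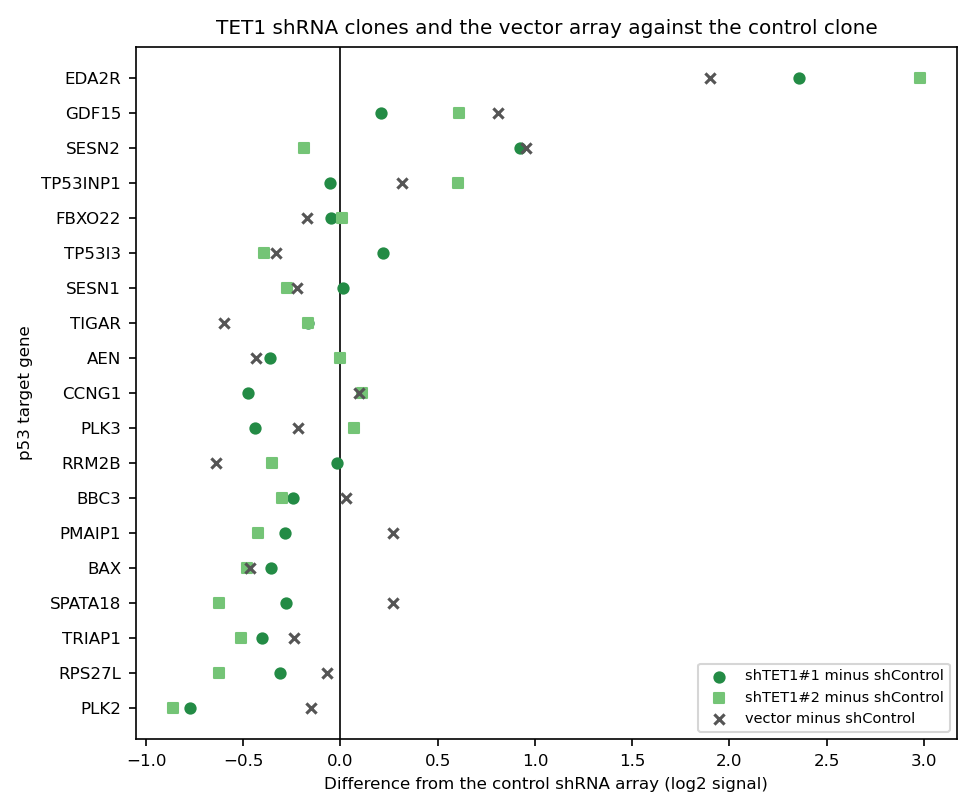
Difference in log2 signal from the control shRNA array for each TET1 shRNA clone and for the vector array, by p53 target gene. EDA2R lies at 2.36 and 2.98 in the clones and 1.90 in the vector array, and PLK2 is lowest in the clones at -0.77 and -0.86.

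Across all 8 arrays, 16 of the 19 members had their highest value on a TET1 plasmid array (42.2% of all kept clusters). It was an FL array for 12 (23.8% of all kept clusters) and TET1-CD for 4 (11.3%). The lowest value fell on a TET1 shRNA array for 13 of 19 members (30.7% of all kept clusters), and for 10 of these on the array labelled shTET1#2 (18.3%). The plasmid and shRNA arrays also differ in delivery, sorting and clonality, which cannot be told apart from TET1 level in this ordering. The range of a member over the 8 arrays ran from 0.21 for FBXO22 to 3.10 for PLK2, with a median of 1.19 on the log2 scale.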

How the data were processed

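Total RNA (100 ng) was amplified, biotin-labelled and hybridised to Affymetrix arrays, 8 in all. The authors deposited log2 signal, and per the submitters' processing notes Affymetrix Expression Console 1.3.1 and RMA were used, without their roles or order. No genome build is given in the sources used here. Of 53981 rows, 364 held no value. Gene names came from the platform annotation, and sequences from RefSeq.

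A cluster was kept if 2 or more of the 8 arrays had it above their own median. All arrays entered 1 limma 3.58.1 fit (R 4.3.3) with a mean each for shControl, shTET1, vector and the wild-type and mutant plasmids, plus a term of 0.5 for FL and -0.5 for CD. It left 2 residual degrees of freedom, the clone pair and the construct dependence of the catalytic difference. Adjusted p-values are Benjamini-Hochberg values over 28946 clusters, with a threshold of 0.05, and the code was tested on simulated data. The number of arrays limits the precision.

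The member genes, the lists and the tests were chosen with earlier results of these data known. Values by array are given for the 12 members with the largest plasmid difference, the 5 largest in each other contrast, and PLK2, GDF15 and BAX; other members given by array were added after their values were seen. From each other list the 3 highest and 3 lowest in the plasmid comparison are named, with MDM4 and CHEK2; PURPL was added after its values were seen. Alternatives covered the filter, centring, cyclic loess, the choice of cluster, left-out arrays and the comparator.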

Additional observations from a re-analysis of the deposited data

How the results depend on the processing

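Under the alternatives only the members with the largest differences in each contrast were followed by gene. All 272 of these values kept their direction and stayed short of the limma threshold. Members were picked by size in the main fit, so this does not cover the others. For BAX the TET1 shRNA mean of 7.60 lay below shControl (8.02) but above the vector (7.55). For GDF15 the mean of 6.98 lay above shControl (6.57) but below the vector (7.38). With arrays centred on their medians, 1 cluster passed the threshold in the plasmid comparison, and fitting 1 named cluster per gene symbol brought 5 past it in the shRNA comparison, none of them a member. The member median of the shRNA comparison was -0.23 with centring, -0.15 with cyclic loess, -0.043 with the vector array as comparator, and -0.27 to -0.24 without either TET1 shRNA clone. The wild-type minus mutant median was 0.047 without the 2 CD arrays. The cause of these shifts was not tested. With 1 array for the vector and 1 for the control clone, no alternative replaces their missing replicates, and a signal near the array median, as for PLK2 and EDA2R, limits how low a value can be read. No pairing by replicate number was possible because no 2 groups share more than 1 replicate number. The wild-type and mutant plasmids are matched by construct, and the fit already holds that match as its FL and CD term.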

Other observations

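Interferon response genes, which transfected DNA can induce, were measured for 9 of 16 listed, and 3 were kept. IRF1 (0.23), IRF7 (0.11) and ISG15 (0.057) had plasmid minus vector differences above 0 (50.2% of all kept clusters), with limma adjusted p between 0.545 and 0.921. The genes not kept exceeded the array median on no array. Among them the plasmid mean was below the vector for BST2, IFIT1, IFIT2 and IFI44 and above it for IFIT3 and IFIH1. ISG15 read 6.43, 6.45, 6.47 and 6.54 with TET1-FL, mTET1-FL, TET1-CD and mTET1-CD, against 6.41 with the vector, so the arrays lay within a narrow band.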
